A study of Mus musculus with 9 samples.

Results

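A set of 10 Wnt pathway genes was followed through 9 RNA-seq libraries of mouse prostate organoids: the ligands Wnt4, Wnt7a, Wnt7b and Wnt10a, the secreted inhibitors Wif1 and Sfrp1, the receptors Fzd6 and Lgr4, and the targets Axin2 and Lef1. They were taken by gene symbol from the 52224 named entries of the expression table. The set had been proposed with measured values of these libraries in view, so that its differences between groups are given as a description, with no test. Tests are given for the other genes of the pathway, in lists that were also chosen with earlier results of these data known, so that their p-values are no independent evidence. These tests come from a fit over the 12396 genes whose average reached 1 CPM (read counts scaled to a common library total, per M reads assigned to genes). Of the 10 genes, 8 were above that level, and Sfrp1 and Lef1 were below it.

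Wnt proteins are secreted, lipid-modified ligands that bind Frizzled receptors together with the co-receptors Lrp5 and Lrp6. Binding stops the destruction complex, of which Axin proteins are the scaffold, from degrading beta-catenin, and beta-catenin then works in the nucleus with Tcf and Lef factors. Wif1 and the Sfrp proteins bind Wnt ligands outside the cell, and Lgr receptors bind R-spondins, which keep Frizzled receptors on the surface. In the prostate the pathway is best known for its part in duct growth and in the growth of epithelial progenitors.

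All organoids came from basal cells of prostates of male Mpc1 fl/fl mice, in which the gene for a subunit of the mitochondrial pyruvate carrier can be deleted by Cre; the sources used here do not give the age of these mice. Vehicle organoids (n = 3) carried a lentivirus for the red fluorescent protein RFP and received vehicle; UK5099 organoids (n = 3) carried the same virus and were treated for 1 week with 10 µM UK5099, an inhibitor of the carrier; Mpc1-KO organoids (n = 3) carried a Cre-RFP virus and received vehicle. After a first week of culture the organoids were dissociated and RFP-positive cells sorted. No group carried Cre without floxed Mpc1, so that an effect of Cre itself and of the deletion cannot be told apart. The organoids were grown in growth factor reduced Matrigel in organoid medium, so that ligands and inhibitors were expressed here by the cultured epithelium. The paper does not list what was added to the medium, and whether Wnt pathway proteins were among it is not known here. Whether the replicates of a group came from separate cultures or animals is not in the labels, and the p-values below measure only the spread between these libraries.

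Libraries held 16.5 to 28.7 M reads, and a floor of detection of 3 reads lay between 0.104 and 0.182 CPM. Mpc1 was at 2.36 to 2.41 CPM in vehicle, 2.04 to 2.47 CPM in UK5099 and 0.522 to 0.598 CPM in Mpc1-KO libraries. Replicates spread most in UK5099, with a median SD over genes of 0.181 in log2 units, against 0.0876 in vehicle and 0.0608 in Mpc1-KO. UK5099 library 1 stood apart from UK5099 libraries 2 and 3, with a TMM scaling factor of 1.08 against 0.984 to 1.01 in the other 8 libraries. Where leaving it out changed the call of a named pathway gene, or a sign among the 10 genes, the value without it is given. The 5 basal markers summed to 4998 to 5891 CPM in vehicle, 14727 to 17826 CPM in UK5099 and 5665 to 6166 CPM in Mpc1-KO, and the 6 luminal markers to 3001 to 3303, 2277 to 2599 and 3087 to 3158 CPM. Of 12 mesenchymal markers 6 were above 1 CPM, and their sum was 6758 to 7942 CPM in vehicle, 280 to 614 CPM in UK5099 and 2738 to 3602 CPM in Mpc1-KO, with Col1a2 at 0 in all libraries and Lum at 0 in vehicle and Mpc1-KO. This sum is mostly Fn1 (6618 to 7734, 254 to 587 and 2685 to 3535 CPM), and Dcn of the same list went the other way, at 1.25 to 7.92 CPM in vehicle and 10.3 to 14.3 CPM in UK5099. The part of these shifts in the values below was not tested, and fewer cells of a type cannot be told apart from less RNA per cell.

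Wif1, which encodes a secreted protein that binds Wnt ligands, had the largest fold difference between group means of the 10 genes. It was at 8.97, 7.30 and 10.6 CPM in the vehicle libraries, 63.2, 67.6 and 55.3 CPM in the UK5099 libraries and 31.2, 27.5 and 27.7 CPM in the Mpc1-KO libraries. All 9 libraries were ordered by group, with vehicle lowest, Mpc1-KO between and UK5099 highest, and no groups overlapped. The UK5099 mean was 6.93 times the vehicle mean, a log2 difference of 2.74 ± 0.169 (SE, n = 3 per group). The Mpc1-KO mean was 3.22 times the vehicle mean, a log2 difference of 1.65 ± 0.158 (SE, n = 3 per group), and lay below UK5099 by a log2 difference of -1.09 ± 0.103. The vehicle values rest on 198, 200 and 253 reads, well above the floor.

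Sfrp1, the other secreted inhibitor, was close to the floor in every group. It was at 0.362, 0.547 and 0.585 CPM in vehicle, 0.642, 1.10 and 0.364 CPM in UK5099 and 0.557, 0.844 and 0.598 CPM in Mpc1-KO, from 6 to 29 reads per library. The groups overlapped, and no difference was detectable at this depth.

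**Figure D1:**
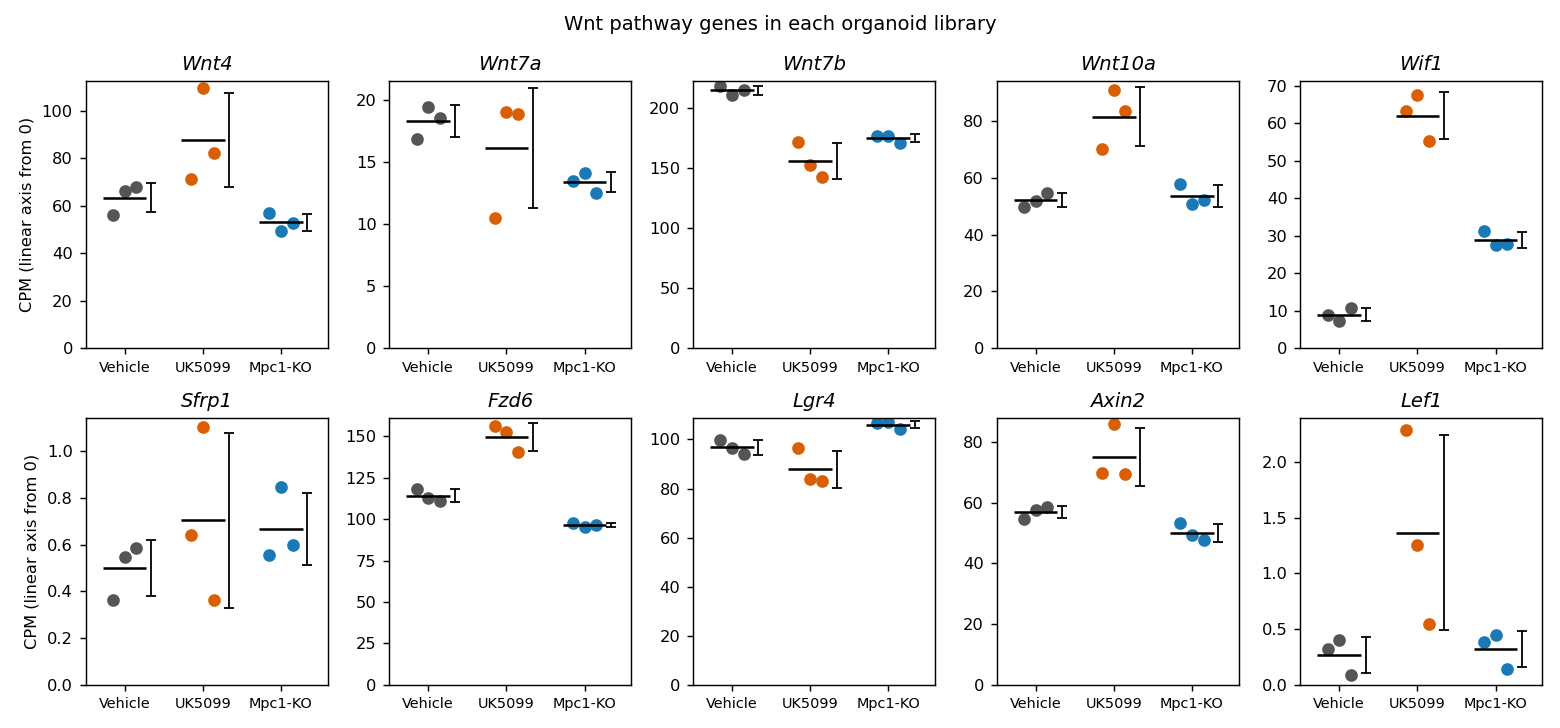
CPM of each of the 10 genes (linear axes from 0) in the 3 vehicle, 3 UK5099 and 3 Mpc1-KO libraries; points are libraries, lines are means and bars are SD. Wif1 separates all groups, with vehicle at 7.30 to 10.6, Mpc1-KO at 27.5 to 31.2 and UK5099 at 55.3 to 67.6 CPM, while Sfrp1 stays at or under 1.10 CPM.

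The promoter of Wif1 and that of Axin2, a classical target of beta-catenin with Tcf and Lef factors, are shown because these factors bind DNA of the form CTTTGAT or CTTTGAA. The sequences are RefSeq promoter windows of GRCm38.p6 upstream of the gene start, both on the plus strand, the one for Wif1 cut to 206 of 250 bases so that it ends before the earliest annotated transcript start, and capitals mark the core CTTTG where it occurs on either strand.
Wif1 (chr10:121033754-121033959): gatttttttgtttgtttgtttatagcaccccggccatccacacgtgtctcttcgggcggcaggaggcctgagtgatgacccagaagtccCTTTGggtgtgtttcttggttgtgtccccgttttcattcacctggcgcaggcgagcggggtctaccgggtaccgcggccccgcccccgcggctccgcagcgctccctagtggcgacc
Axin2 (chr11:108920099-108920348): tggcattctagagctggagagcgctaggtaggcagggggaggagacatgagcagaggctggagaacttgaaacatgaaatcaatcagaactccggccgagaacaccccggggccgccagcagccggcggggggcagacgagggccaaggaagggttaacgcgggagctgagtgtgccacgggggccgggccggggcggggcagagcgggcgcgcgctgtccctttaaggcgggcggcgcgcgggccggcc
The Wif1 window held 1 CTTTG, which began 117 bases before the end of the stretch shown, and the Axin2 window held none. Promoters of 6 of the 10 genes were matched by symbol in the RefSeq table, with 9 windows in all because Lef1 has several. None of the 9 held CTTTGAT or CTTTGAA on either strand within 250 bases upstream, a pattern that 7.48% of 32851 mouse promoter windows of that length hold. The core CTTTG alone, which is contained in both, occurs in 48.58% of them. These counts describe the letters of short windows and say nothing of where a factor binds.

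The ligand genes did not share a direction. Wnt7b, which encodes an epithelial ligand, had the highest mean CPM of the 10 genes in each group, though in UK5099 its libraries overlapped with those of Fzd6, and was lower in both treated groups, whereas Wnt10a and Wnt4 had higher means in UK5099. Wnt7b was at 218, 210 and 214 CPM in vehicle, 172, 152 and 143 CPM in UK5099 and 177, 177 and 171 CPM in Mpc1-KO. Every UK5099 and Mpc1-KO library lay below every vehicle library, with log2 differences of -0.47 ± 0.080 and -0.29 ± 0.022 (SE, n = 3 per group), and the UK5099 and Mpc1-KO libraries overlapped. After TMM or median-of-ratios rescaling UK5099 and Mpc1-KO no longer overlapped, at 144 to 159 CPM and 173 to 179 CPM with TMM.

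Wnt10a, a ligand known for its part in skin appendages and teeth, was at 49.7, 52.0 and 54.8 CPM in vehicle, 70.3, 91.0 and 83.4 CPM in UK5099 and 58.0, 50.9 and 52.2 CPM in Mpc1-KO. All UK5099 libraries were above the other 6, with a mean 1.56 times that of vehicle and a log2 difference of 0.63 ± 0.116 (SE, n = 3 per group). Vehicle and Mpc1-KO overlapped, and their small difference of 0.04 ± 0.070 changed sign when Mpc1-KO library 1 was left out (-0.02).

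Wnt4, a ligand best known for female reproductive duct and kidney development, was at 56.3, 66.2 and 68.0 CPM in vehicle, 71.4, 109.6 and 82.2 CPM in UK5099 and 56.8, 49.4 and 52.7 CPM in Mpc1-KO. The UK5099 libraries lay above the other 6, but UK5099 library 1 was only just above vehicle library 3, and after TMM rescaling it was at 66.2 CPM against a highest vehicle value of 69.0 CPM, so that the groups overlapped. The log2 difference was 0.45 ± 0.20 for UK5099 and -0.26 ± 0.10 for Mpc1-KO against vehicle (SE, n = 3 per group), the latter with overlapping libraries.

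Wnt7a, which is close in sequence to Wnt7b, was the lowest of the 4 ligands. It was at 16.9, 19.4 and 18.6 CPM in vehicle, 10.5, 19.0 and 18.9 CPM in UK5099 and 13.4, 14.1 and 12.5 CPM in Mpc1-KO. All Mpc1-KO libraries were below vehicle, with a log2 difference of -0.44 ± 0.076 (SE, n = 3 per group). The lower UK5099 mean came from library 1: the log2 difference was -0.22 ± 0.28 with it and 0.05 without it, and UK5099 libraries 2 and 3 lay within the vehicle range.

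Fzd6 and Lgr4, both receptors at the cell surface, had means on opposite sides of vehicle in the treated groups. Fzd6, a Frizzled receptor known for tissue polarity, was at 118, 113 and 111 CPM in vehicle, 156, 153 and 140 CPM in UK5099 and 97.8, 95.4 and 96.4 CPM in Mpc1-KO. No groups overlapped: UK5099 was above vehicle by a log2 difference of 0.39 ± 0.055, and Mpc1-KO was below it with -0.24 ± 0.029 (SE, n = 3 per group). Lgr4, a receptor for R-spondins, was at 99.9, 96.3 and 94.1 CPM in vehicle, 96.4, 83.9 and 83.1 CPM in UK5099 and 106.8, 106.9 and 104.4 CPM in Mpc1-KO. Mpc1-KO was above every other library, by 0.13 ± 0.027 on the log2 scale against vehicle, and UK5099 overlapped with vehicle at -0.14 ± 0.073. That overlap came from UK5099 library 1, and with TMM rescaling UK5099 lay at 84.1 to 89.3 CPM, below the vehicle range of 95.5 to 98.8 CPM.

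Axin2, the feedback inhibitor that is often used as a readout of beta-catenin activity, was at 54.7, 57.5 and 58.7 CPM in vehicle, 69.7, 86.0 and 69.4 CPM in UK5099 and 53.3, 49.4 and 47.5 CPM in Mpc1-KO. UK5099 libraries were all above vehicle and Mpc1-KO libraries all below it, with log2 differences of 0.39 ± 0.106 and -0.19 ± 0.057 (SE, n = 3 per group). The gap between Mpc1-KO and vehicle was narrow, and with median-of-ratios rescaling the groups overlapped at 54.1 against 53.7 CPM.

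Lef1, which encodes a partner of beta-catenin and is itself a target, was at 0.317, 0.401 and 0.0836 CPM in vehicle, 2.29, 1.26 and 0.546 CPM in UK5099 and 0.383, 0.444 and 0.138 CPM in Mpc1-KO. All UK5099 libraries were above the other 6, but they rest on 57, 33 and 9 reads against 7, 11 and 2 in vehicle and 11, 10 and 3 in Mpc1-KO. The log2 difference from vehicle was 1.19 for UK5099, and it ran from 0.54 to 1.92 with the pseudocount that was added; without UK5099 library 1 it was 0.84.

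Over all 10 genes, the UK5099 libraries lay wholly above vehicle for 6 genes, wholly below for 1 and overlapped for 3. The Mpc1-KO libraries lay above vehicle for 2 genes, below for 4 and overlapped for 4, and below UK5099 for 6, above for 1 and overlapped for 3. Of the 8 genes that were tested, 6 did not overlap in each of the 3 comparisons. Over all genes tested, 45.7% did not overlap between UK5099 and vehicle (24.4% higher and 21.3% lower in UK5099), 49.7% between Mpc1-KO and vehicle (24.2% higher and 25.6% lower in Mpc1-KO) and 54.9% between Mpc1-KO and UK5099 (25.2% higher and 29.8% lower in Mpc1-KO). The 10 genes had been chosen from such values, and nothing is read from their counts. The UK5099 and Mpc1-KO comparisons share the vehicle libraries.

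**Figure D2:**
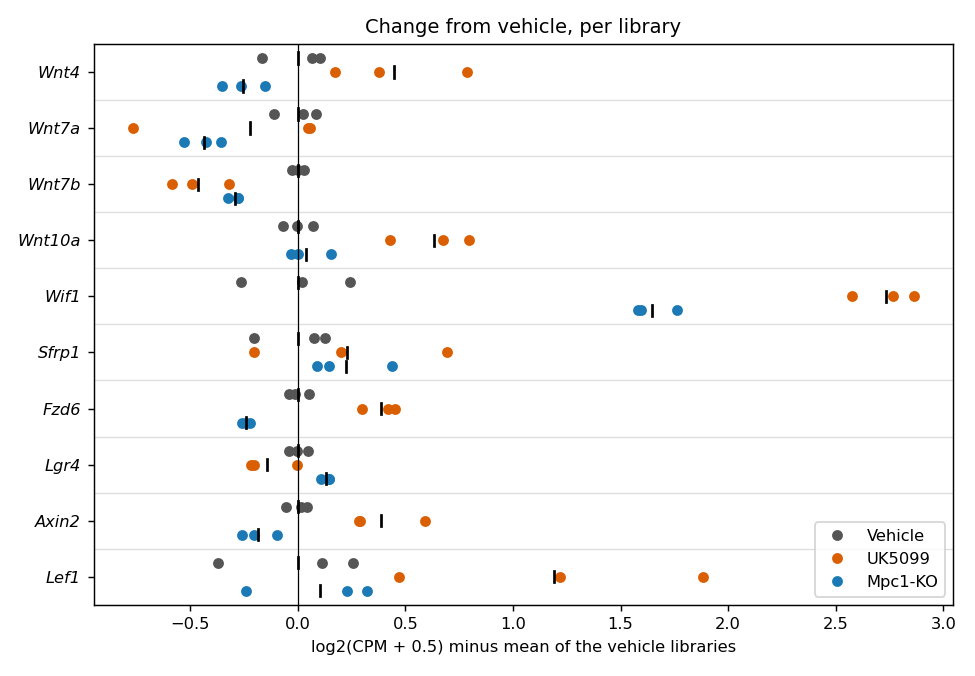
Difference of each library from the vehicle mean, in log2(CPM + 0.5), for the 10 genes; points are libraries coloured by group and ticks are group means. Axin2 and Fzd6 sit to the right of vehicle in UK5099 (0.39 and 0.39) and to the left in Mpc1-KO (-0.19 and -0.24), and Wif1 to the right in both (2.74 and 1.65).

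To compare genes with each other, CPM was divided by exon length in kb. In vehicle the order was Wnt7b (43.7 CPM per kb), Fzd6 (23.7), Wnt10a (21.1), Lgr4 (16.4), Wnt4 (15.1), Axin2 (10.3), Wnt7a (5.76), Wif1 (3.69), Sfrp1 (0.114) and Lef1 (0.0304), of which Lgr4 and Wnt4 overlapped across libraries. In UK5099 the first 3, Wnt10a (33.1 CPM per kb), Wnt7b (31.7) and Fzd6 (31.1), overlapped with each other, and Wif1 followed them at 25.6 CPM per kb, overlapping with Wnt4 at 20.9. In Mpc1-KO Wnt7b led at 35.7 CPM per kb and Wif1, at 11.9, was next to Wnt4 at 12.6, with overlapping libraries. Lengths are those of all annotated exons of a gene, so that the order also depends on which transcripts are used.

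The make-up of the ligand transcripts was then compared over the 19 Wnt genes. Summed over them, the CPM were 531 to 565 in vehicle, 468 to 518 in UK5099 and 415 to 435 in Mpc1-KO, so that both treated groups were lower without overlap. As CPM per kb, which gives long genes no extra weight, the sum was 118 to 126 in vehicle, 113 to 129 in UK5099 and 97.5 to 103 in Mpc1-KO, and UK5099 overlapped with vehicle. Wnt7b made up 34.1% to 37.6% of the summed CPM per kb in vehicle, 24.2% to 31.0% in UK5099 and 35.1% to 35.9% in Mpc1-KO. The ratio of Wnt7b to Wnt4, in CPM, was 3.15 to 3.88 in vehicle, 1.39 to 2.40 in UK5099 and 3.11 to 3.57 in Mpc1-KO. This ratio is taken within a library and does not depend on scaling.

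**Figure D3:**
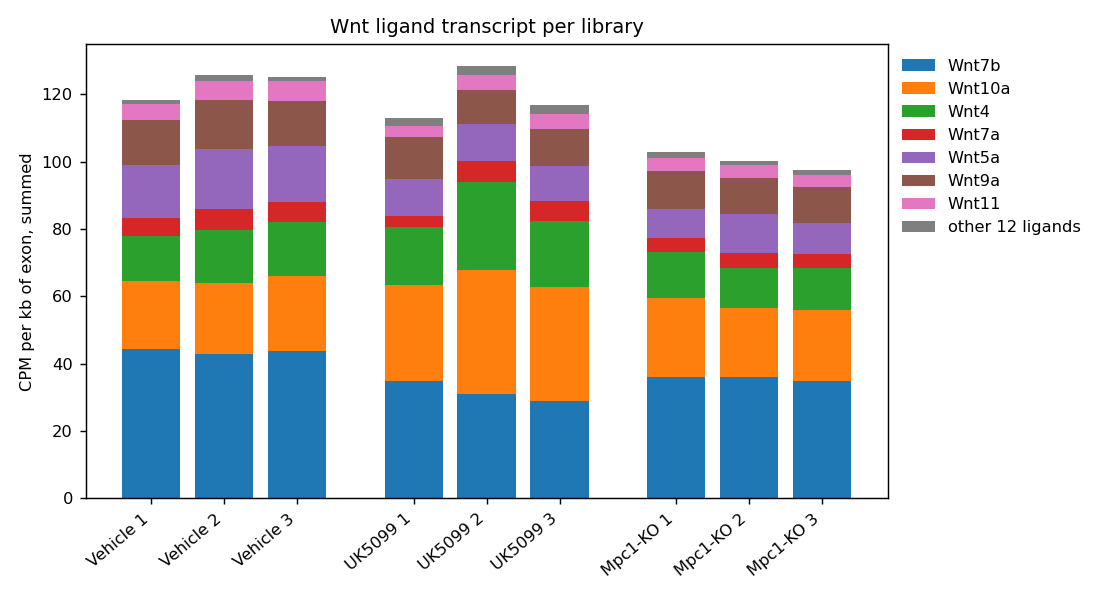
Stacked CPM per kb of exon of the Wnt ligands in each of the 9 libraries, with the 7 most abundant ligands in colour and the other 12 in grey. The Wnt7b segment takes 24.2% to 31.0% of the bar in UK5099 and 34.1% to 37.6% in vehicle.

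The other ligands were tested next. Of 15 other ligand genes 5 were tested, and all passed the test in both comparisons with vehicle, Wnt6 upwards and Wnt5a, Wnt9a, Wnt10b and Wnt11 downwards. Wnt10b reached the 1 CPM needed for testing through vehicle (mean 1.81 CPM, against 0.879 in UK5099 and 0.511 in Mpc1-KO). Wnt6, at 0.914 CPM in vehicle, reached it through UK5099 (3.43 CPM) and Mpc1-KO (1.97 CPM). For both genes the direction of the call is tied in part to that filter. Over all tested genes, 38.1% passed between UK5099 and vehicle (19.9% higher and 18.2% lower in UK5099) and 10.7% between Mpc1-KO and vehicle (5.64% higher and 5.03% lower in Mpc1-KO; limma with Benjamini-Hochberg adjustment, adjusted p below 0.05). The median log2 difference of the list was -0.44 for UK5099 and -0.50 for Mpc1-KO, beside 0.04 and -0.01 over all genes tested.

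Wnt5a, the main ligand of beta-catenin-independent signalling, was at 123, 140 and 131 CPM in vehicle, 86.1, 87.5 and 79.6 CPM in UK5099 and 67.3, 89.4 and 72.3 CPM in Mpc1-KO. Both treated groups lay below vehicle, with log2 differences of -0.63 (limma adjusted p = 0.00073) and -0.79 (limma adjusted p = 0.0021). Wnt6 was low in vehicle, at 0.725, 0.803 and 1.21 CPM, and higher in UK5099 at 2.97, 3.62 and 3.70 CPM, with a log2 difference of 1.48 (limma adjusted p = 0.00012). In Mpc1-KO Wnt6 was at 2.26, 1.91 and 1.75 CPM, with a log2 difference of 0.82 (limma adjusted p = 0.019), a call that was lost without vehicle library 1 (0.068) or 2 (0.079) or any one Mpc1-KO library (0.059 to 0.095). Of the falls in UK5099, those of Wnt9a, Wnt10b and Wnt11 were lost when vehicle library 2 or 3 was left out (limma adjusted p of 0.058 to 0.12), that of Wnt9a also without UK5099 library 2 (0.067), and that of Wnt10b also without UK5099 library 2 (0.097) or 3 (0.089). In Mpc1-KO these 3 falls were lost without vehicle library 2 or 3 or any one Mpc1-KO library (0.051 to 0.16), and those of Wnt9a and Wnt11 also without vehicle library 1 (0.092 and 0.065). No gene for ligand secretion passed against vehicle with all libraries in the fit: Wls, the carrier that takes Wnt proteins to the surface, was at 251 to 291 CPM across all groups (limma adjusted p = 0.57 and 0.40 for UK5099 and Mpc1-KO), and Porcn, which adds the lipid, at 11.0 to 19.4 CPM (limma adjusted p = 0.41 and 0.10). For Mpc1-KO, with a log2 difference of -0.37, Porcn passed downwards without UK5099 library 1 (limma adjusted p = 0.021) and with no UK5099 library in the fit (0.019).

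Most of the other receptors and co-receptors that were tested fell with UK5099. Of 13 tested, 8 fell, 1 rose and 4 did not pass in UK5099 against vehicle, with a median log2 difference of -0.23. In Mpc1-KO against vehicle 1 fell, 1 rose and 11 did not pass, with a median of 0.00. The shares that passed were 69.2% and 15.4%, beside 38.1% and 10.7% of all genes. In the direct comparison of Mpc1-KO with UK5099, in which 44.4% of all genes passed (21.1% higher and 23.2% lower in Mpc1-KO), 9 receptors were higher in Mpc1-KO, 1 was lower and 3 did not pass. Fzd4 was at 96.9, 94.6 and 93.9 CPM in vehicle, 55.2, 48.9 and 60.9 CPM in UK5099 and 114, 119 and 113 CPM in Mpc1-KO. The 3 groups did not overlap, and the difference between Mpc1-KO and UK5099 was 1.07 on the log2 scale (limma adjusted p = 7.1e-06). Against vehicle, the Mpc1-KO rise of Fzd4 (0.28, limma adjusted p = 0.042) was lost under 10 of 18 alternatives, and the fall of Fzd1 (-0.26, 0.019) under 6. Both were lost without any one vehicle or Mpc1-KO library (0.098 to 0.14 for Fzd4 and 0.056 to 0.092 for Fzd1). Fzd1 (-0.83, limma adjusted p = 3.7e-06) and Fzd5 (-0.95, limma adjusted p = 0.00014) fell as well, and so did the co-receptors Lrp5 (-0.34, limma adjusted p = 0.0051) and Lrp6 (-0.21, limma adjusted p = 0.0091). Ror1, a receptor for Wnt5a, was at 5.71, 7.81 and 8.78 CPM in vehicle and 0.521, 1.56 and 0.788 CPM in UK5099 (log2 difference -2.49, limma adjusted p = 7.8e-05). In Mpc1-KO Ror1 was at 3.10, 3.02 and 4.69 CPM and did not pass (log2 difference -0.95, limma adjusted p = 0.053), but it passed under 5 of 17 alternatives, among them without UK5099 library 1 (0.0088) or 2 (0.026) and with no UK5099 library in the fit (0.003).

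Among the genes of the R-spondin module, 3 of 8 were tested. Lgr6, a relative of Lgr4 that marks epithelial progenitors in skin, was at 33.0, 32.6 and 30.9 CPM in vehicle, 14.6, 6.13 and 5.88 CPM in UK5099 and 9.50, 11.6 and 9.47 CPM in Mpc1-KO. It fell in both, by 1.92 (limma adjusted p = 0.00042) and by 1.62 on the log2 scale (limma adjusted p = 0.0075). The difference of Lgr6 between Mpc1-KO and UK5099 (0.31, limma adjusted p = 0.39) passed upwards without UK5099 library 1 (0.00019). Rnf43, a ubiquitin ligase that removes Frizzled receptors and is a target of beta-catenin, rose with UK5099 (0.30, limma adjusted p = 0.0025) and in Mpc1-KO had a log2 difference of 0.20 (limma adjusted p = 0.058), which passed without UK5099 library 1 (0.016) or 3 (0.044). Lgr5, a stem cell marker in intestine, was at 0.228 CPM or less in every library, and Rspo3, which encodes a ligand of Lgr4, at 0.408 CPM or less, with 0 in all UK5099 and Mpc1-KO libraries.

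Of the other secreted and surface inhibitors, 5 of 17 were tested and 7 were at 0 in every library. With UK5099, 2 rose, 1 fell and 2 did not pass, and in Mpc1-KO 1 fell and 4 did not pass. That was 60% and 20% of the inhibitors tested, beside 38.1% and 10.7% of all genes. Dkk2, a secreted protein that binds the Lrp co-receptors, was at 3.81, 3.94 and 3.01 CPM in vehicle, 0.321, 0.0761 and 0.0606 CPM in UK5099 and 0.418, 0.756 and 0.414 CPM in Mpc1-KO. It was lower in both treated groups in every library, with log2 differences of -2.66 (limma adjusted p = 1.2e-05) and -2.00 (limma adjusted p = 0.0011). Dkk2 and Wif1 thus lay on opposite sides of vehicle in both groups. Dkk2 averaged 1.42 CPM and reached the 1 CPM needed for testing only through vehicle (mean 3.59 CPM, against 0.153 in UK5099 and 0.529 in Mpc1-KO). Its test therefore adds little to these values. In UK5099 libraries 2 and 3 it lay below the 3-read floors of 0.114 and 0.182 CPM. Apcdd1, a membrane protein that binds Wnt and Lrp proteins, rose with UK5099 (27.8 to 35.1 CPM in vehicle, 43.9 to 55.9 CPM in UK5099, log2 difference 0.70, limma adjusted p = 0.0008), as did Kremen1, a receptor for Dkk proteins (0.29, limma adjusted p = 0.0027).

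**Figure D4:**
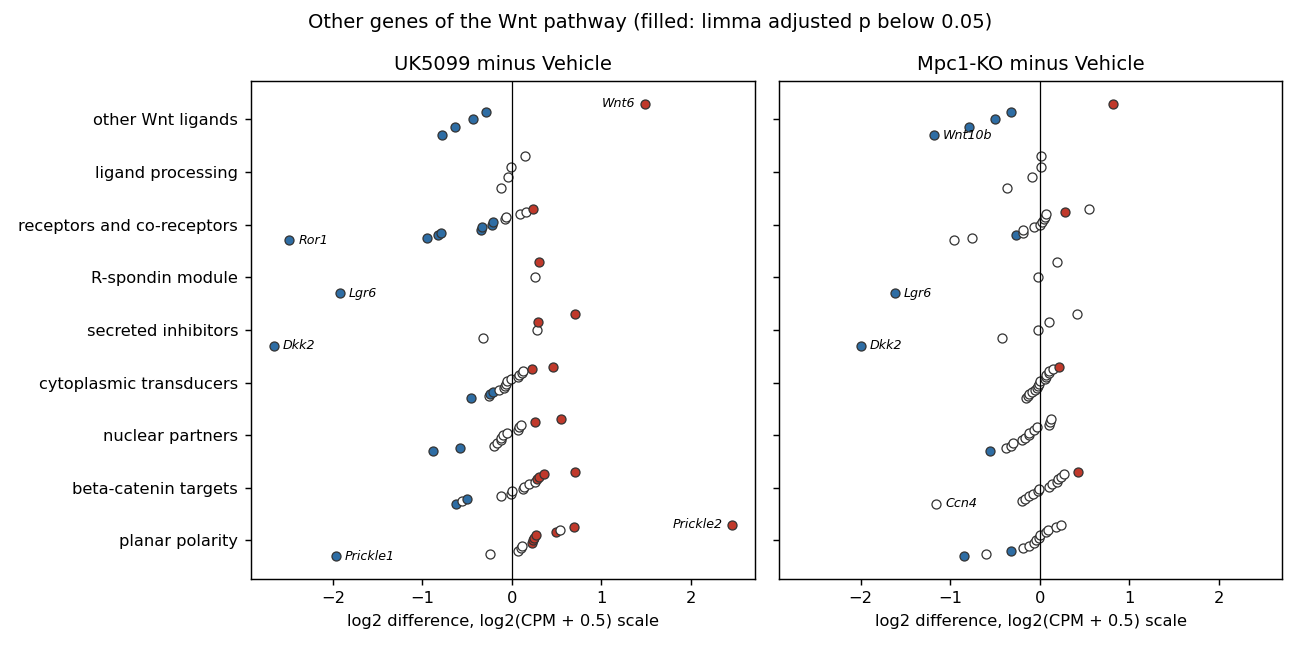
Log2 difference from vehicle, on the log2(CPM + 0.5) scale, of the other tested Wnt pathway genes by list for UK5099 (left) and Mpc1-KO (right); filled points passed limma at an adjusted p below 0.05, red upwards and blue downwards. Dkk2 (-2.66 and -2.00) and Lgr6 (-1.92 and -1.62) lie far to the left in both, and Prickle2 (2.46 and -0.01) to the right in UK5099.

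Genes that act in the cytoplasm and nucleus passed with UK5099 at shares of 31.25% (transducers) and 30.8% (nuclear partners), beside 38.1% of all genes. Ctnnb1, which encodes beta-catenin, had log2 differences of -0.06 and -0.09 (limma adjusted p = 0.47 and 0.40 for UK5099 and Mpc1-KO). Of 16 cytoplasmic transducers 2 rose and 3 fell with UK5099, and 1 rose in Mpc1-KO. Tnks was among the genes that fell with UK5099 (-0.21, limma adjusted p = 0.006), a call that held under every alternative run. The rise in Mpc1-KO was of the same gene (0.22, limma adjusted p = 0.021) and was lost under 8 of 18 alternatives. Among them were those without any one vehicle or Mpc1-KO library (0.054 to 0.1). Csnk1a1, a kinase of the destruction complex, rose with UK5099 (678 to 695 CPM in vehicle, 934 to 960 CPM in UK5099, log2 difference 0.47, limma adjusted p = 3.7e-05), as did Csnk1d (0.22, limma adjusted p = 0.006). Csnk1e, a kinase that acts on Dishevelled, fell (-0.46, limma adjusted p = 0.00029). Of 13 nuclear partners 2 rose and 2 fell with UK5099: the co-repressor gene Tle4 rose (0.55, limma adjusted p = 2.9e-05), its relative Tle2 fell (-0.88, limma adjusted p = 0.012; in Mpc1-KO -0.38 and 0.32, or 0.036 without UK5099 library 1), Pygo2 rose (0.26, limma adjusted p = 0.0066) and Tcf7l1, a Tcf factor known mainly as a repressor, fell (-0.58, limma adjusted p = 0.0066). In Mpc1-KO 1 nuclear partner passed, Ctnnbip1, which fell (-0.55, limma adjusted p = 0.042), and 12 did not pass. This fall was lost under 7 of 18 alternatives, among them without any one Mpc1-KO library (0.096 to 0.15). Between Mpc1-KO and UK5099 the difference of Tle2 (0.50, limma adjusted p = 0.096) passed without UK5099 library 1 (0.00052) and with median-of-ratios rescaling (0.046). Tcf7l2, the Tcf factor common in epithelia, did not pass in UK5099 (-0.17, limma adjusted p = 0.076), and passed without UK5099 library 1 (0.027) and with TMM (0.023) or median-of-ratios rescaling (0.027).

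Targets of beta-catenin other than Axin2 and Lef1 did not share a direction. Of 14 tested, 4 rose, 2 fell and 8 did not pass with UK5099, and 1 rose and 13 did not pass in Mpc1-KO. The shares that passed were 42.9% and 7.14%, near the 38.1% and 10.7% of all genes. Among those that rose with UK5099 were Apcdd1 (0.70, limma adjusted p = 0.0008) and Rnf43 (0.30, limma adjusted p = 0.0025). Both of these calls held under every alternative run, as did the 2 falls. Sox9 was at 491, 553 and 551 CPM in vehicle and 290, 326 and 435 CPM in UK5099 (log2 difference -0.62, limma adjusted p = 0.0032), and Ephb2 fell too (-0.50, limma adjusted p = 0.00039). Myc was at 118, 98.5 and 98.6 CPM in vehicle, 126, 116 and 142 CPM in UK5099 and 146, 136 and 142 CPM in Mpc1-KO. It passed upwards in both (0.28 and 0.43, limma adjusted p = 0.031 and 0.017), and in UK5099 the call was lost under 9 of 18 alternatives, among them without vehicle library 2 or 3 (0.12 for each), UK5099 library 3 (0.082) or Mpc1-KO library 3 (0.05). In Mpc1-KO it was lost without vehicle library 2 or 3 (0.077 and 0.076) or any one Mpc1-KO library (0.05 to 0.085). Nkd1, a feedback target like Axin2, was at 0.281 CPM or less in every library.

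Planar polarity genes, which work in a branch that does not use beta-catenin, mostly rose with UK5099: of 13 tested, 7 rose, 1 fell and 5 did not pass, with a median log2 difference of 0.23. The share that passed was 61.5%, beside 38.1% of all genes (19.9% higher and 18.2% lower in UK5099). Prickle2 was at 3.04, 4.31 and 5.39 CPM in vehicle, 22.6, 28.1 and 24.7 CPM in UK5099 and 4.63, 4.0 and 3.77 CPM in Mpc1-KO. It rose with UK5099 by 2.46 on the log2 scale (limma adjusted p = 6.7e-06), and its relative Prickle1 fell (-1.96, limma adjusted p = 1e-05). Celsr1, a large cadherin of the polarity complex, rose (0.70, limma adjusted p = 0.00049), as did Daam1, a formin that links Dishevelled to actin (0.49, limma adjusted p = 0.0001). In Mpc1-KO none rose and 2, Prickle1 and Celsr2, fell, 15.4% beside 10.7% of all genes. Both calls were lost without vehicle library 3 (0.057 and 0.071) or Mpc1-KO library 1 (0.057 and 0.084) or 3 (0.059 and 0.084). That of Celsr2 was lost without any one vehicle or Mpc1-KO library. With UK5099 Celsr2 rose (0.24, limma adjusted p = 0.022), a call lost under 3 of 18 alternatives. Between Mpc1-KO and UK5099, 8 of the 13 were lower in Mpc1-KO and 1 was higher, beside 23.2% and 21.1% of all genes.

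Over the whole pathway outside the 10 genes, 82 genes were tested, a gene held by several lists being counted once. With UK5099 18 rose and 22 fell, which is 48.8% of them beside 38.1% of all genes, and in Mpc1-KO 4 rose and 10 fell, 17.1% beside 10.7%. Between Mpc1-KO and UK5099, 20 were higher in Mpc1-KO and 19 lower, 47.6% beside 44.4%. The lists had been chosen with earlier results of these data known, and nothing is read from these shares. The Mpc1-KO count of 14 depends on single libraries: it was 6, 5 and 4 without vehicle library 1, 2 and 3, and 3, 4 and 3 without Mpc1-KO library 1, 2 and 3. It was 34 without UK5099 library 1, and 37 when the UK5099 libraries were left out of the fit. Of the 14, Wnt5a, Lgr6 and Dkk2 passed under every alternative run, though Dkk2 reached the level needed for testing only through vehicle.

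The genes whose log2 CPM followed Wif1 most closely over the 9 libraries, among the 9894 genes that averaged 5 CPM or more, were Oit1 (Pearson r = 0.987), Cox8a (0.983) and Artn (0.979). For Wnt4 they were Nt5dc2 (0.984), Mt1 (0.980) and Ehd1 (0.968), and for Axin2 they were Naprt (0.989), Gpx1 (0.987) and Cyth3 (0.982). Oit1 had group means of 8.12 CPM in vehicle, 38.3 CPM in UK5099 and 19.4 CPM in Mpc1-KO, against 8.95, 62.0 and 28.8 CPM for Wif1. These values describe 9 points in 3 groups, in which any gene with the same order of group means scores high.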

How the data were processed

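Organoid RNA was made into stranded mRNA libraries (KAPA), sequenced single-end, aligned by the authors to GRCm39 with STAR (2.7.9a, per the submitters' processing notes) and normalised with Partek Flow. CPM were deposited, with 0.0001 that the authors had added; this was subtracted. The sources used here do not give the strand setting of the counting, and exons of Wnt7b, Fzd6, Axin2 and Lef1 overlap a gene on the opposite strand in GENCODE M21 (by 324, 152, 209 and 1208 bases), so that reads of the 2 genes may not be separable. The step that 1 read is worth gave each library's depth, and on it 99.9% to 99.93% of the values below 1000 reads were whole within 0.02 reads. An entry with no name (0.000715% of a library or less) was left out, and 24 symbols turned into spreadsheet dates were kept in the fit unnamed.

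Genes averaging 1 CPM or more were fitted with limma 3.58.1 (R 4.3.3) on log2(CPM + 0.5), in 1 fit of all 9 libraries (6 residual degrees of freedom, mean-variance trend), two-sided, with Benjamini-Hochberg adjustment over 12396 genes and a threshold of 0.05. Fold changes on this scale understate the change of low genes. The script was tested on simulated data in which a gene had the same spread in all 3 groups. The groups here differ in spread, and that test does not cover this. The SE given for the 10 genes comes from the libraries compared alone. The authors tested with DESeq2, which was not used here. The 10 genes, the pathway lists, the marker lists and the tests were chosen with earlier results of these data known. Among 120 other pathway genes, 82 were tested, 38 were under 1 CPM and 9 of these were at 0. Named pathway genes were up to 4 per list with the smallest p for UK5099 against vehicle and up to 2 for Mpc1-KO among those that passed, and Wls, Porcn, Lrp5, Lrp6, Ctnnb1, Lgr5, Tcf7l2, Nkd1 and Rspo3 whatever their values; genes with the closest pattern were the 3 with the highest Pearson r. Exon lengths are from GENCODE M21, and promoter windows from RefSeq (GRCm38.p6).

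Replicate numbers are shared by the groups. Deviations from the group means correlated between same-numbered vehicle and UK5099 libraries with r of 0.44, 0.14 and 0.31, over 0.1 in each. Vehicle library 2 correlated more with UK5099 library 3 (0.26), and the labels do not say that the numbers pair libraries. The fit behind the p-values given above did not use the numbers, and a replicate block was run only as an alternative. Alternatives were other pseudocounts, filters, scalings and sample sets, a replicate block and leaving out each library.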

Additional observations from a re-analysis of the deposited data

How the results depend on the processing

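The count of genes that passed between Mpc1-KO and vehicle was the least stable value. It was 1323 over all genes, 761 with no filter, 4399 in a fit of the 6 libraries alone and 309 to 3593 with 1 library left out, the highest without UK5099 library 1. Among the pathway genes it was 14, with 8 under no filter, 9 with no mean-variance trend, 37 in the fit of 6 libraries and 3 to 34 with 1 library left out. The counts for UK5099 against vehicle (4721 over all genes, 40 in the pathway) ran from 3439 to 5683 and from 30 to 49 with 1 library left out, and those for Mpc1-KO against UK5099 (5498 and 39) from 4004 to 6205 and from 35 to 46.

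With the replicate number as a block, 41 pathway genes passed for UK5099 against vehicle, 16 for Mpc1-KO against vehicle and 40 for Mpc1-KO against UK5099. Same-numbered libraries of Mpc1-KO did not deviate together with vehicle (r of -0.04, -0.02 and 0.09) or UK5099 (-0.12, -0.08 and 0.12). Among the genes named, the block changed calls in Mpc1-KO against vehicle: Fzd4 (limma adjusted p = 0.052) and Wnt9a (0.053) no longer passed, and Ror1 did (0.034).

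Of the 10 genes, the sign of the difference changed under at least 1 alternative for Wnt7a and Sfrp1 in UK5099 against vehicle, for Wnt10a and Lef1 in Mpc1-KO against vehicle and for Sfrp1 in Mpc1-KO against UK5099, all with overlapping libraries. The planned count tests on recovered reads (edgeR, DESeq2) were not run, because the deposited CPM carry an added constant. Depth limits Lef1 and Sfrp1 in particular.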

Other observations

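Some Wnt pathway genes under 1 CPM on average had groups that did not overlap; they were chosen after their values were seen and were not tested. Wnt3a, a ligand that activates beta-catenin signalling, was at 0.762, 1.03 and 1.09 CPM in UK5099 (64 reads) and at 0 in all vehicle and Mpc1-KO libraries. With a floor of 3 reads set for a group at 0, UK5099 came to 23.1-fold of vehicle, and Mpc1-KO to 23.0-fold below UK5099. These ratios make no allowance for the counting error of the 64 reads or for the spread between libraries. Wnt3, a relative of Wnt3a, was at 0.160, 0.723 and 0.243 CPM in UK5099, from 27 reads, with 3 reads over the vehicle libraries. Fzd10, a Frizzled receptor, was at 2.25, 1.03 and 1.03 CPM in UK5099 and 0.544, 0.182 and 0.209 CPM in vehicle, a ratio of 4.93 over the summed reads, and in Mpc1-KO at 0.278, 0.356 and 0.276 CPM. Notum, a secreted enzyme that removes the lipid from Wnt proteins, was at 0.272, 0.0365 and 0.585 CPM in vehicle, 1.08, 0.533 and 0.303 CPM in UK5099 and 0.0348, 0.0444 and 0.0460 CPM in Mpc1-KO (3 reads in all); vehicle overlapped with UK5099 and with Mpc1-KO. Apc2 was lower than vehicle in both groups, with ratios of 0.471 for UK5099 and 0.452 for Mpc1-KO. These values rest on few reads and, where UK5099 library 1 is the highest, as for Fzd10 and Notum, on a library that stands apart from the others of its group.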
